A study of Mus musculus with 2 samples.

Results

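The Rab GTPase genes, which encode the organisers of membrane traffic, were examined for the histone mark H3K36me2, dimethylated lysine 36 of histone H3, in regulatory T (Treg) cells. Members were the protein-coding genes whose RefSeq symbol is Rab, a number and an optional letter, with binding partners, GTPase-activating proteins and other Rab-named regulators left out. This gave 59 genes of the 21631 protein-coding genes annotated on mouse chromosomes 1 to 19 and X. The cells came from spleens of C57BL/6 mice. One genotype was wild type and the other was a conditional Nsd2 knockout in Treg cells, with 1 library of each. The sources used here do not name the Cre driver, the age or number of mice, the antibody or an input control. With 1 library per genotype there is no replicate error, so no difference between genotypes was tested and no p-value is given.

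Rab proteins are small GTPases that switch between a GDP-bound and a GTP-bound form, and each sits on its own set of membranes. Exchange factors load them with GTP, GTPase-activating proteins switch them off, a prenyl group anchors them in the membrane, and effectors recruited by the GTP-bound form tether, move or fuse vesicles. In T cells the recycling members carry antigen receptors and other cargo back to the cell surface, and Rab27a is known for the docking of secretory granules. NSD2, the deleted enzyme, is a methyltransferase that places H3K36me2 on chromatin.

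The measurement was a list of regions enriched for H3K36me2, called by the authors in each library. The wild-type library had 17158154 tags and 54527 regions, and the knockout library had 14789700 tags and 39745 regions. A 500 bp window needed 13 tags in the wild type and 12 in the knockout, which is 7.58 and 8.11 tags once both are scaled to 10000000 tags, so the threshold was relatively higher in the knockout library. The covered share of a gene is the percentage of its body, from the first to the last annotated base, that lies inside regions. A share of 0 means that no region was called and not that the mark was absent. Over the body of Nsd2 itself there was 1 knockout region, 500 bp long, and none in the wild type; such a list does not show whether a gene was deleted. Of the T cell and Treg markers, 10 of 11 carried a region in both libraries, with 28.3% of their summed body covered in the wild type and 29.6% in the knockout, and Foxp3, the factor that defines Treg cells, was covered over 17.6% and 29.9% of its body. Ctla4 had no region. Cover was 1.45% and 0.75% over 7 B cell markers, with Ms4a1 and Cr2 among those at 0. Of these, Cd79b was covered over 39.8% and 48.8% of its body and Cd79a over 14.7% and 22.9%. Over 7 myeloid markers cover was 1.38% and 1.04%, with Lyz2, Cd14, Adgre1, S100a8 and S100a9 at 0. Over 7 NK and CD8 T cell markers it was 5.65% and 0.88%, with 5 genes carrying a region in the wild type and 1, Gzmb, in the knockout, while Cd8a and Ncr1 were at 0. Over 5 erythroid markers, with Alas2 and Epor among those at 0, cover was 1.06% and 0.66%. Klf1 had 23.0% in the wild type and 0 in the knockout, and Tfrc had 0 and 1.97%. The part of these markers in the values below was not tested.

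Sequence could be set beside the regions at the starts of 48 of the 59 genes, using 250 bases upstream of the most upstream RefSeq start in GRCm38.p6. Printed first are 5 windows that lie outside the annotated body of every coding gene and at which the region lists have something to show. The windows of Rab1a (chr11:20201162-20201411, plus strand), Rab5c (chr11:100738216-100738465, minus strand) and Rab8a (chr8:72160950-72161199, plus strand) lay inside regions over all or most of their length in both libraries. Rab8b (chr9:66919706-66919955, minus strand) lay inside a region in the wild type alone, and Rab5a (chr17:53478984-53479233, plus strand) had 214 of its bases inside one in the knockout alone. Sequences run 5′ to 3′ on the gene's strand, and capitals mark each match, on either strand, to GGGCGG as the core of the GC box, CCAAT as the box of that name, CCGGAAG as an ETS core, CACGTG as the E-box and TGACGTCA as the cyclic AMP response element.
Rab1a: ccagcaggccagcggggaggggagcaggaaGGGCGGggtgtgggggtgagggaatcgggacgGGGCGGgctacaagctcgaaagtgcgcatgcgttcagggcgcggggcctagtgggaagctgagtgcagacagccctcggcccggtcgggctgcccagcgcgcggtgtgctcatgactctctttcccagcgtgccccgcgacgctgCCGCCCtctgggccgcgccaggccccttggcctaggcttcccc
Rab5c: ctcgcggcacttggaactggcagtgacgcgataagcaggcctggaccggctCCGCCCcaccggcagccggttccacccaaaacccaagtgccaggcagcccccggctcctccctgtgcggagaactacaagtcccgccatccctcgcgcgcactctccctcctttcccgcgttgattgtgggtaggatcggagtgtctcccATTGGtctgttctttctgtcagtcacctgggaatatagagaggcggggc
Rab8a: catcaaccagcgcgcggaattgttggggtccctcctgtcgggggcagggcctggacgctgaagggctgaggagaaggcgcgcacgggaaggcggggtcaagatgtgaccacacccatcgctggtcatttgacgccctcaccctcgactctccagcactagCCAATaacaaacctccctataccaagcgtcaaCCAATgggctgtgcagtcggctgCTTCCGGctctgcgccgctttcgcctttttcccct
Rab8b: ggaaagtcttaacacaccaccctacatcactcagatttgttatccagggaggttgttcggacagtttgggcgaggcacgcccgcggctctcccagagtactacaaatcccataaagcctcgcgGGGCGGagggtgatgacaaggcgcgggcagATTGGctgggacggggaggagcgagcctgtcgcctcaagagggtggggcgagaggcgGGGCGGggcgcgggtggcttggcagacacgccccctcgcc
Rab5a: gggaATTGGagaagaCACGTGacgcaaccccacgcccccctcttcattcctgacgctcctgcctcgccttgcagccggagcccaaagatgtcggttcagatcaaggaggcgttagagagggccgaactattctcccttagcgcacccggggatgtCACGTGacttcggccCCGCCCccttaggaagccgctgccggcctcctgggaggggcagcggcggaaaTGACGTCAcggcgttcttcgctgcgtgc

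These windows are rich in CpG, with 23 CpG in that of Rab1a, 18 in those of Rab5c and Rab8a, 20 in that of Rab8b and 23 in that of Rab5a. The Rab1a window held 3 GC boxes and no CCAAT box. The Rab8a window held no GC box, a pair of CCAAT boxes and 1 ETS core. The Rab5a window was the only 1 of the 5 with E-box letters, which it held in 2 places, and with the cyclic AMP response element. The 5 therefore share CpG content and not a single motif.

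Over all 48 windows the median was 16 CpG, against 10 CpG over 17274 coding genes with a window. GGGCGG or its complement was present in 33 of 48 (68.75%), against 43.2% of all windows, and CCAAT in 22 of 48 (45.8%), against 36.8%. CCGGAAG was found in 3 of 48 (6.25%; 9.26% of all windows), CACGTG in 4 of 48 (8.33%; 6.73%) and TGACGTCA in 2 of 48 (4.17%; 2.01%). The motifs do not contain each other, matches that overlap were counted separately, and a match is a string of letters and not evidence of a bound factor. The GC box was the motif with the largest gap between Rab windows and all windows.

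Regions touched the Rab windows more often than windows in general, in both genotypes. Over 300 bp from 250 bases before to 50 after the start, 10 of 48 Rab genes were touched in the wild type (20.8%, exact 95% interval 10.47 to 35, counting error only) and 10 in the knockout, against 10.3% of all coding genes in each. Both libraries touched 5 of them, Rab1a, Rab5b, Rab5c, Rab8a and Rab22a (10.4%, interval 3.47 to 22.7), against 5.15% of all genes. The lower bound for each single library lies almost at the share of all genes, and the interval for both libraries includes that share. These intervals treat the 48 genes as independent draws and hold no error between libraries. They are therefore no test of a difference between Rab genes and other genes. The wild type alone touched Rab7, Rab8b, Rab9, Rab11a and Rab40c, and the knockout alone touched Rab4b, Rab5a, Rab10, Rab27a and Rab33b. The number of touched starts was thus equal and only a part of the genes was shared.

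CpG content differed along with this, with a median of 20 CpG in the 15 Rab windows that a region touched in either library and 12 in the 33 others, and of 16 and 8 over all genes. Among windows with 15 to 24 CpG, 9 of 20 Rab windows were touched in either library, against 24.5% of all windows in that class, and among those with 5 to 14 CpG it was 5 of 20, against 15.8%. Of the 6 Rab windows with 25 CpG or more, 1 was touched, against 19.2%. The part of CpG content in the start regions was not tested.

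**Figure D1:**
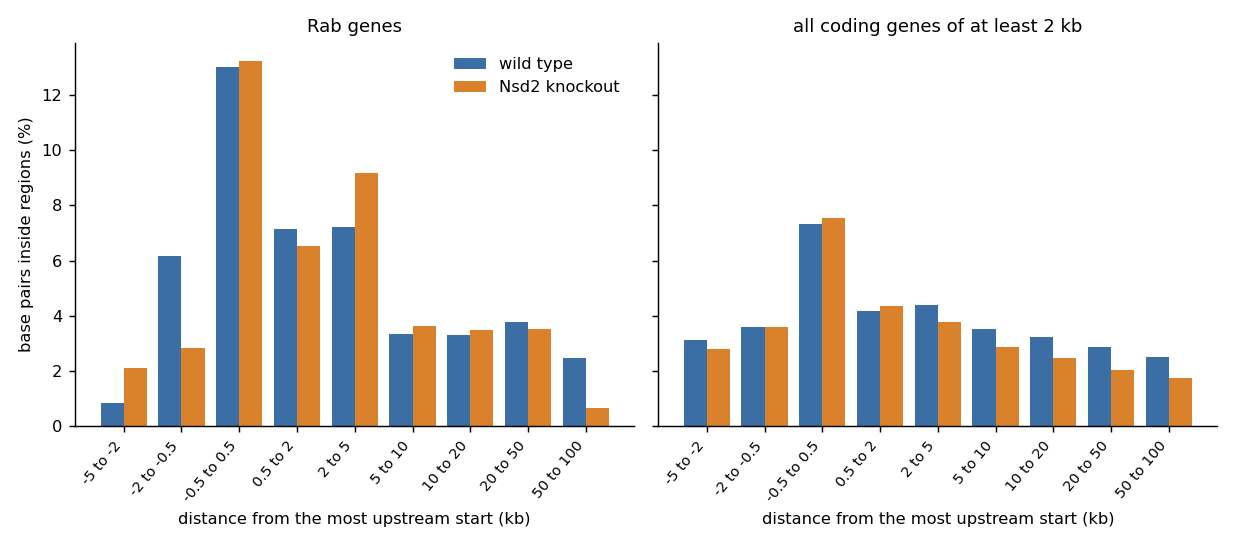
Percentage of base pairs inside H3K36me2 regions (y axis) by distance from the most upstream annotated start in kb (x axis, bins of unequal width, body side positive), for 48 Rab genes (left) and all coding genes of at least 2 kb with a known start (right), with blue bars for the wild type and orange bars for the knockout. Within 0.5 kb of the start 13.0% and 13.2% of Rab bases were covered, against 7.33% and 7.54% for all genes, and cover is lower further into the body in both sets.

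Within 5 kb downstream of the start, and 0.5 kb upstream of it, the Rab genes had higher cover than coding genes in general in both libraries, and from 2 to 50 kb into the body they also kept more of it in the knockout. Within 0.5 kb of the start, 13.0% of Rab bases were covered in the wild type and 13.2% in the knockout, from 12 genes in each library. Further upstream it was not so in each case, with 6.16% and 2.84% from 2 to 0.5 kb before the start, where all genes had 3.58% and 3.60%, and 0.83% and 2.12% from 5 to 2 kb before it, where all genes had 3.13% and 2.79%. From 2 to 5 kb into the gene the values were 7.24% and 9.20%, where all genes had 4.38% and 3.76%. From 20 to 50 kb they were 3.79% and 3.53%, from 6 and 7 genes, where all genes had 2.85% and 2.03%. Beyond 50 kb the Rab values of 2.48% and 0.65% rest on 3 genes in the wild type and 1 in the knockout.

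Of the 59 Rab genes, 38 carried a region in the wild type (64.4%), where 49.4% of the 19190 coding genes of at least 2000 bp did so. In the knockout it was 37 (62.7%), where the background was 45.1%. A region in both libraries was found in 29 members (background 36.1%), in the wild type alone in 9 (background 13.3%), in the knockout alone in 8 (background 9.05%) and in neither in 13 (background 41.5%). The Rab bodies ranged from 2758 to 226810 bp with a median of 23213 bp, close to the 21324.5 bp of all genes measured. Summed lengths were less alike. Genes of at least 100 kb made up 613239 of 2114003 bp of Rab bodies, and 621546535 of 1045663707 bp of all bodies. All genes of that class had pooled cover of 1.81% and 1.17%, so long, thinly covered genes weigh less in the pooled Rab values. The part of gene length in the pooled values was not tested.

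Among the 46 members with a region, the covered share was smaller in the knockout for 22, larger for 20 and equal for 4. The background was 59.7% smaller and 36.7% larger over 11217 genes with a region. The median difference, knockout minus wild type, was 0 percentage points for the Rab genes and −0.69 for all genes. A difference of 20 points or more, a rule of size, was met by 1 member that was lower in the knockout, Rab24 (background 1.71%), and by 0 that were higher (background 1.93%). At 10 points it was met by 3 lower members, Rab24, Rab3d and Rab26 (background 6.79%), and by 4 higher ones, Rab42, Rab35, Rab34 and Rab4b (background 5.52%). A covered share of at least 20% was reached by 4 members in the wild type, Rab8a, Rab24, Rab25 and Rab26 (background 4.91%), and by 4 in the knockout, Rab8a, Rab25, Rab26 and Rab35 (background 4.58%). Rab differences were therefore mostly small and divided almost evenly between the directions.

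**Figure D2:**
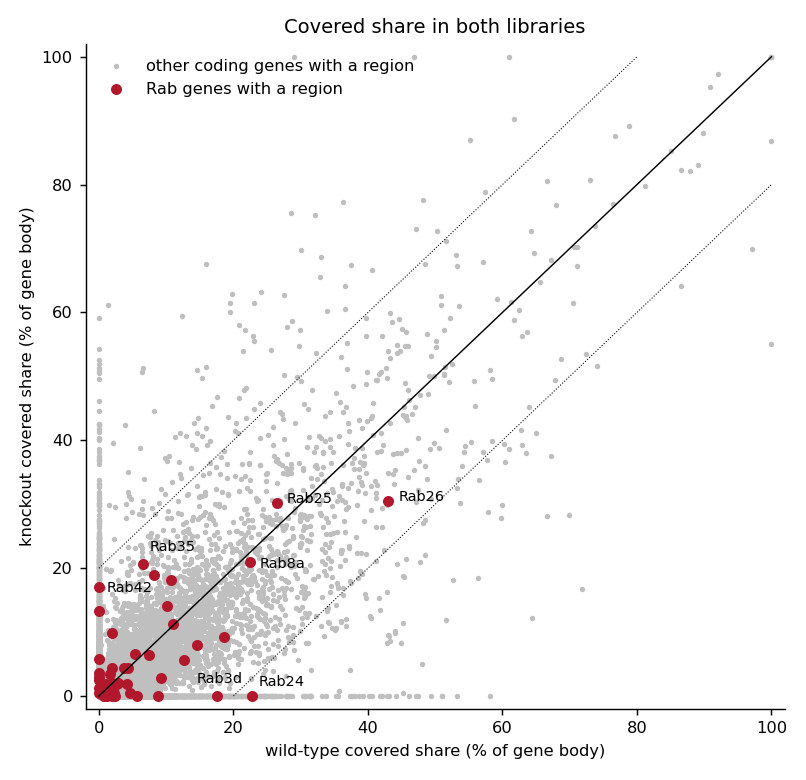
Knockout covered share (y axis, % of gene body) against wild-type covered share (x axis, %) for each coding gene with a region, with the Rab genes in red and the others in grey, a solid line of equality and dotted lines at 20 points of difference. Of the 46 red points, only Rab24 (22.8% and 0) lies beyond a dotted line, and most lie below 20% on both axes.

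Summed over all 59 bodies, regions covered 3.48% of base pairs in the wild type and 3.25% in the knockout, so that the knockout held 93.3% of the wild-type length. Over all coding genes the values were 2.53% and 1.89%, or 74.8%. With wild-type regions of 500 bp held to the scaled knockout threshold, the Rab cover was 2.98% and 3.25%, or 109% of the wild type, and that of all genes 2.05% and 1.89%, or 92.1%, so this choice turns the direction for the Rab genes. It also turned with only regions of at least 1000 bp, at 139% for the Rab genes and 77.2% for all genes, and with only regions of at least 15 normalised tags, at 159.9% and 79.9%. With the regions at or above their library's median score it was 71.6% for the Rab genes and 71.1% for all genes, and the gap between them was gone. The number of regions touching a Rab body was 112 in the wild type and 90 in the knockout, or 80.4% with an exact 95% interval of 60.2 to 107 for counting error. That interval includes the 74.4% of all coding genes. It treats regions as independent draws and holds no error between libraries, so it is no test of a difference between Rab genes and other genes.

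Gene length moved with these values. From 30 to 100 kb, 15 Rab genes kept 94.3% of their wild-type covered length in the knockout, against 76.1% for all genes of that length, and from 10 to 30 kb 30 Rab genes kept 96.1%, against 88.2%. Among the 10 Rab genes under 10 kb it was 99.3%, against 101%, and among the 4 of at least 100 kb it was 58.3%, against 64.4%. Within length classes, the gap in covered length kept between the Rab genes and coding genes in general lay in the middle classes. The pooled gap also holds the different mix of gene lengths.

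A few members held much of the cover. Rab6b, Rab37 and Rab8b together held 35.8% of all covered Rab bases in the wild type and 35.96% in the knockout, and the 10 most covered members held 67.7% and 67.6%. Without Rab6b the knockout value rises from 93.3% to 99.9% of the wild type, without Rab8b it is 88.0% and without Rab37 92.3%.

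**Figure D3:**
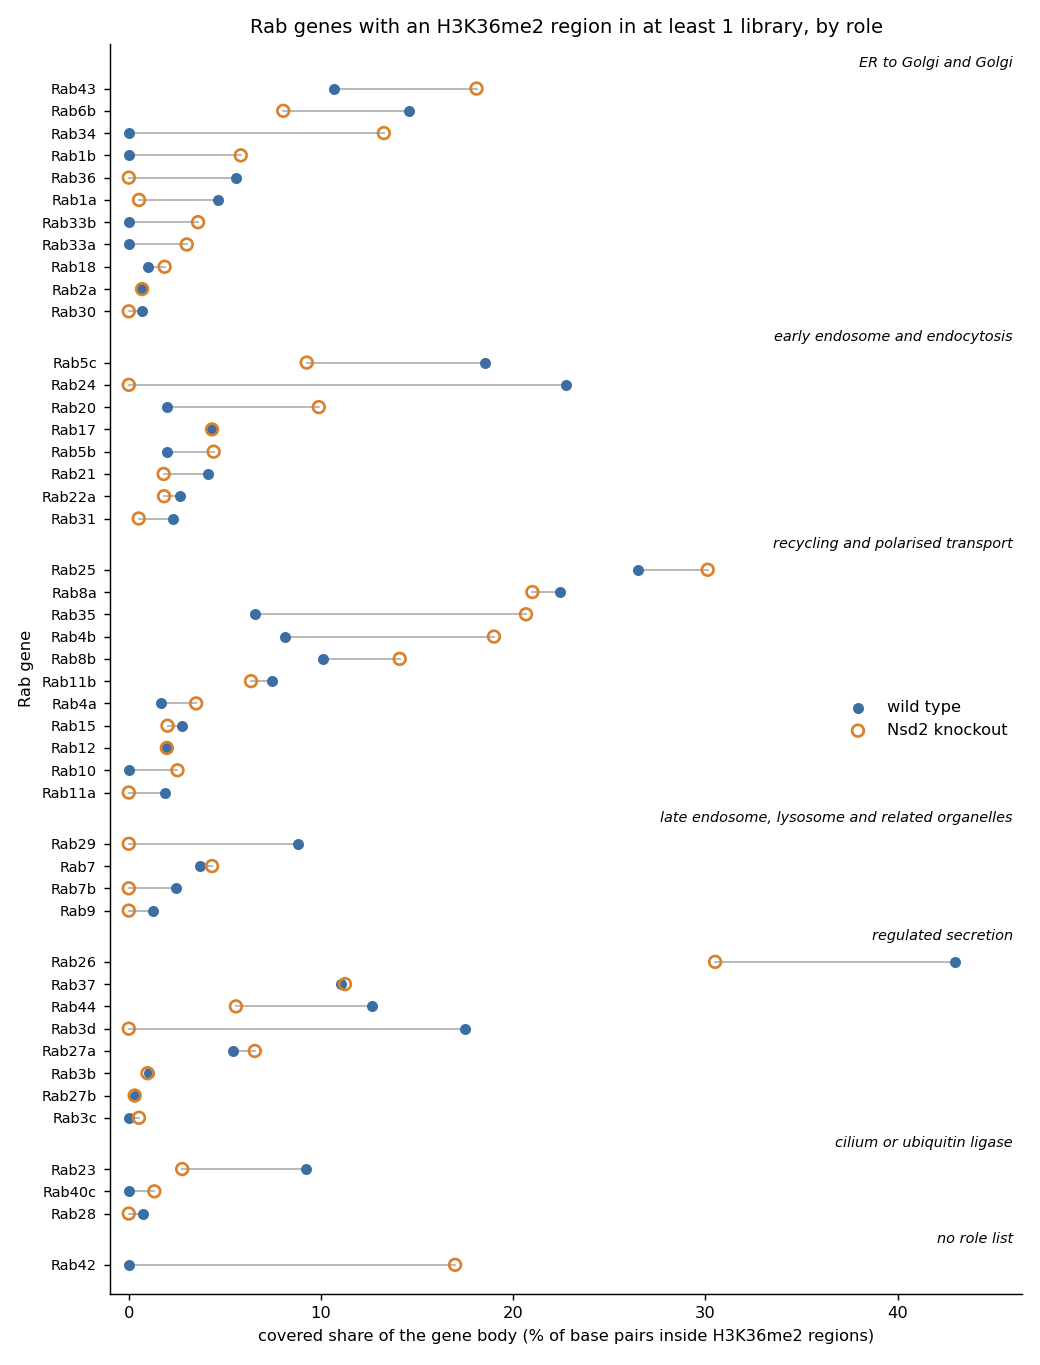
Covered share of the gene body (x axis, % of base pairs inside H3K36me2 regions) for the 46 Rab genes with a region, grouped by role, with 1 filled blue point for the wild-type library and 1 open orange circle for the knockout library per gene, joined by a grey line. Rab26 is the most covered in both libraries, at 43.0% and 30.5%, and the recycling group has several genes whose orange circle lies to the right.

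The members were read by their place in membrane traffic. In the group of ER to Golgi and Golgi members, 7 of 16 carried a region in the wild type and 9 in the knockout, and pooled cover was 3.58% and 2.79%. Of the 11 with a region, 6 were larger in the knockout, 4 smaller and 1, Rab2a, equal, with a median difference of 0.85 points. Rab2b, Rab6a, Rab19, Rab39 and Rab39b had no region in either library.

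Rab6b (chr9:103111667-103185276), the isoform of the Golgi GTPase Rab6 that is enriched in brain, carried more regions than any other member in the wild type. It had 15 wild-type regions over 10733 bp (14.6% of the body) and 6 knockout regions over 5917 bp (8.04%). Its regions held 177 normalised tags (tags per 10000000) in the wild type and 92.8 in the knockout, at similar densities of 16.5 and 15.7 per kb. In the knockout a single region of 2741 bp took in most of the pair of wild-type regions nearest the start, and most of the scattered wild-type regions further in had no knockout counterpart. Over regions at or above the median score its difference was 0.02 points in place of −6.54. Its paralogue Rab6a had none in either library.

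Rab43 (chr6:87788853-87812164), which acts in traffic between the ER and the Golgi, had 10.7% of its body covered in the wild type and 18.1% in the knockout, from 4 and 6 regions. Rab34 (3767 bp long), a Golgi-bound member with roles in lysosome positioning and cilium formation, carried 1 region in the knockout, of 500 bp, and none in the wild type, or 13.3% of its short body. Rab1a and Rab1b, which carry vesicles from the ER to the Golgi, differed in opposite directions. Rab1a went from 4.63% in the wild type to 0.53% in the knockout, its start region being present in both libraries and the pair of 500 bp regions further in only in the wild type. Rab1b went from 0 to 5.83%, a single region of 500 bp at the far end of the gene. Rab36, which binds the lysosomal adaptor RILP, had 5.60% covered in the wild type and 0 in the knockout. Rab33a and Rab33b, the latter a partner of the autophagy protein ATG16L1, each had 1 region in the knockout alone, covering 3.02% and 3.60%. Rab2a, Rab18 and Rab30 stayed under 2% in both libraries.

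Among the 9 early endosome members, 8 carried a region in the wild type and 7 in the knockout, with pooled cover of 3.78% and 2.62%. Of these 8, 5 were smaller in the knockout, 2 larger and 1, Rab17, equal. Rab5c (chr11:100715003-100738215), a driver of early endosome fusion, had 5 wild-type regions over 18.6% of its body and 3 knockout regions over 9.26%. These regions held 72.0 and 42.6 normalised tags, from 124 tags (exact 95% interval 103 to 148) and 63 tags (48.4 to 80.6). They are 4593 and 2384 bp long in sum, at densities of 15.7 and 17.9 per kb, so the intervals do not compare the same bases. Both libraries had a region at its start, of 1484 bp in the wild type and 500 bp in the knockout, and the wild-type region of 1457 bp about 13.1 kb into the gene had no knockout counterpart. The sister genes differed from it and from each other, with 2.004% and 4.42% in Rab5b and no body region in Rab5a.

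Rab24 (chr13:55319223-55321980), an atypical member linked to autophagy, was the only Rab gene past 20 points. Its difference was 1 wild-type region of 628 bp with 9.33 normalised tags, or 16 tags (exact 95% interval 9.15 to 25.98), in the shortest body of the family, and no region in the knockout. It was no longer called when only regions of at least 1000 bp or of at least 15 normalised tags were used, since it then had none. Rab20, which acts in endosome and phagosome maturation, went the other way, from 1.98% to 9.89%, through a knockout region of 1865 bp about 13.7 kb from its start. Rab21, Rab22a and Rab31 had between 2.31% and 4.11% of their bodies covered in the wild type and between 0.52% and 1.83% in the knockout. Rab17 had 1 region of 500 bp in each library, and 456 bp of it were shared.

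The 13 recycling and polarised transport members had the highest pooled cover of the 6 role groups in both libraries, at 5.58% in the wild type and 7.77% in the knockout. They were the only group in which the pooled knockout value was higher. That ranking depends on single genes, since the ER to Golgi group also had 6 larger and 4 smaller members. Rab6b alone held 10733 of that group's 16881 covered bp in the wild type and 5917 of 13160 in the knockout. The knockout held 139% of the wild-type covered length, against 77.1% for the other Rab genes. Of the 11 members with a region, 6 were larger in the knockout, 4 smaller and 1, Rab12, equal, with a median difference of 1.81 points. The same group had 139% without Rab8b, 151% when 500 bp wild-type regions were held to the scaled knockout threshold, and 95.0% over regions at or above the median score, where its direction turned. With only regions of at least 1000 bp the recycling group had 209% and the other Rab genes 97.3%, and with only regions of at least 15 normalised tags 225% and 120%, where the direction turned for the other Rab genes. Region counts were 25 and 31, or 124% with an exact 95% interval of 70.9 to 219, which includes the 74.4% of all coding genes. In the other role groups this ratio ran from 50% to 70%, each with an interval that also includes 74.4%. These intervals treat regions as independent draws and hold no error between libraries, so they are no test of a difference between groups.

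Rab8b (chr9:66843609-66919705) and Rab8a (chr8:72161200-72181366), which deliver vesicles to the plasma membrane and the cilium, had the most covered bases of this group. Rab8b had 10 regions in each library, over 10.1% of the body in the wild type and 14.1% in the knockout (a difference of 3.97 points, and of −1.82 over regions at or above the median score), with 148 and 218 normalised tags from 253 tags (exact 95% interval 223 to 286) and 322 tags (288 to 359). Those tags lie only in regions called in the same library, of 7973 and 10728 bp, so the intervals do not compare the same bases. Tag density was 18.5 per kb in the wild type and 20.3 in the knockout. Of the covered bases of Rab8b 5147 were shared by both libraries. Its region about 45 kb from the start was the densest of all regions over Rab genes, with 42 normalised tags over 1293 bp in the wild type and 57.8 over 1241 bp in the knockout, or 32.5 and 46.6 per kb. The mean density over Rab regions was 16.5 per kb in the wild type and 17.1 in the knockout. Rab8a was covered almost equally, at 22.5% and 21.0%, from 3 regions in the wild type and 6 in the knockout. A region of 2850 bp across its start, the longest over any Rab gene in either library, corresponded in the knockout to separate regions of 729 and 918 bp.

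Rab35 (chr5:115631904-115647158), which drives fast recycling from endosomes, had 2 regions in each library, but 1000 bp were covered in the wild type and 3153 bp in the knockout, or 6.56% and 20.7%. The region near 2.3 kb was 500 bp long in the wild type and lay wholly inside a knockout region of 1898 bp. The other pair of regions did not overlap. Rab4b (chr7:27168433-27178883), a further fast recycling member, had 8.15% covered in the wild type and 19% in the knockout without a shared base. The wild-type region of 1692 bp lay across the far end of the gene and the knockout region of 1616 bp across its start. With 5 kb added on either side, or over the higher-scoring regions, the Rab4b difference turned, to as low as −3.37 points. Rab25 (chr3:88542029-88548279), the epithelial member of the Rab11 subfamily, had 3 regions in each library, covering 26.5% and 30.1%. Its flanks were also well covered, at 12.7% in both libraries over 50 kb on either side. The Rab25 difference turned over the higher-scoring regions and with 5 kb added on either side. It ranged from −12.3 to 28.4 points over the settings run.

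Of the remaining recycling members, Rab11b had 7.45% in the wild type and 6.36% in the knockout, Rab15 had 2.78% and 2.02%, and Rab11a had a region in the wild type alone, at its start. Rab10, which sorts cargo to the basolateral membrane and moves glucose transporter vesicles, had 2.53% in the knockout alone, including its start, and Rab4a had 1.70% and 3.50%. Rab12 had 1 region of 500 bp in each library at different places, and Rab13 and Rab14 had none.

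**Figure D4:**
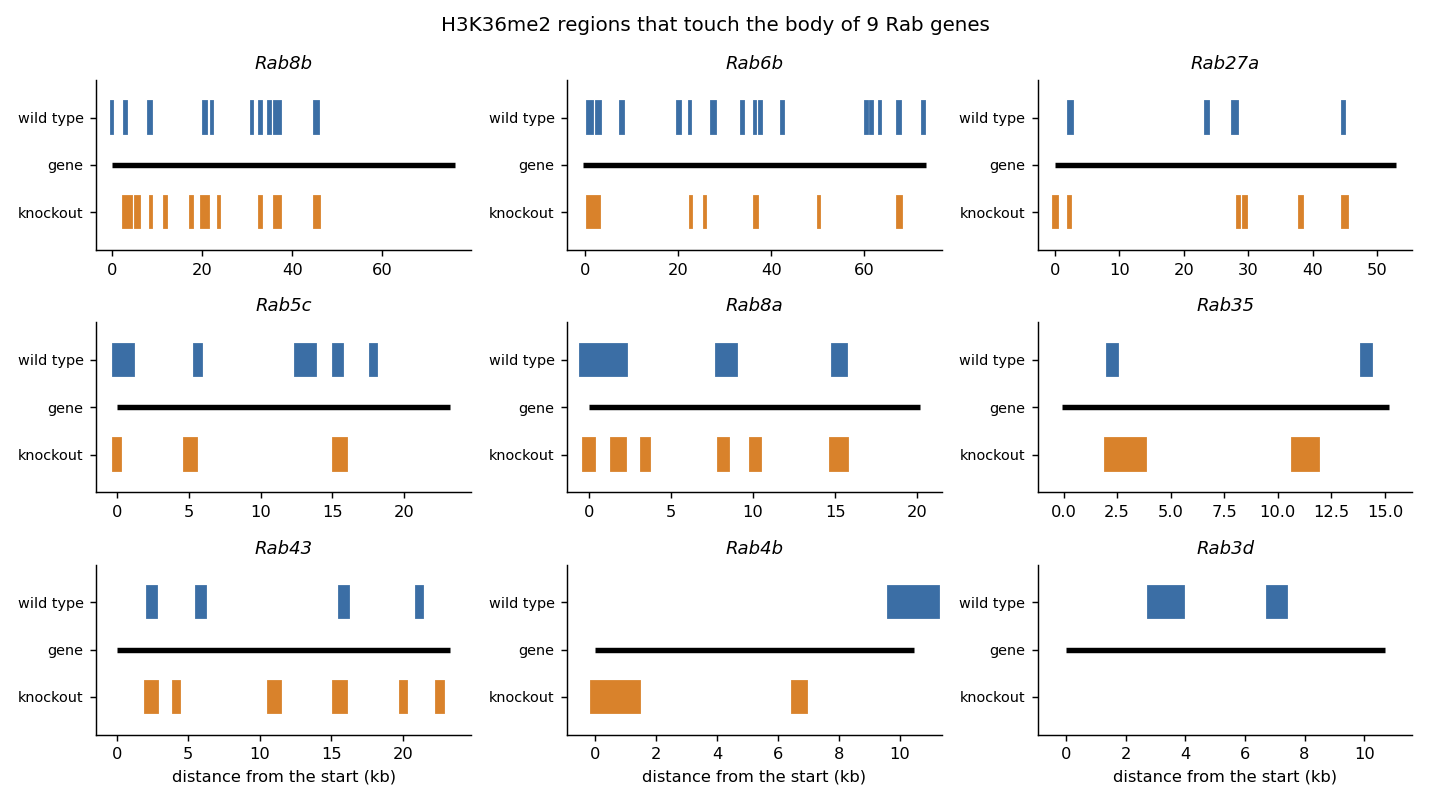
H3K36me2 regions that touch the bodies of 9 Rab genes, by distance from the most upstream annotated start in kb (x axis, scaled per gene), with wild-type regions in blue above and knockout regions in orange below the black gene body. Rab6b has 15 regions above and 6 below, Rab35 has longer regions below, Rab4b has its regions at opposite ends, and Rab3d has regions only above.

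Late endosome and lysosome members had little cover. Of 7 genes, 4 carried a region in the wild type and 1, Rab7, in the knockout, and pooled cover was 1.70% and 1.07%. Rab7, the central GTPase of late endosomes, had 4 regions in each library over 3.72% and 4.33% of its body, but no base in common. Rab29, which recruits the kinase LRRK2 to membranes, had 8.81% covered in the wild type by 1 region of 500 bp and none in the knockout. Rab7b and Rab9 had 2.45% and 1.25% in the wild type alone, while Rab9b, Rab32 and Rab38, the last pair known for melanosome biogenesis, had no region. The genes without a knockout region in this group, Rab29, Rab7b and Rab9, each had a single region in the wild type.

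The regulated secretion group held 7 of 9 members with a region in the wild type and 7 in the knockout, with pooled cover of 3.20% and 2.72%. Rab26 (chr17:24529054-24533747), which acts on secretory granules and synaptic vesicles, was the most covered Rab gene in both libraries. It had 43.0% in the wild type from 3 regions and 30.5% in the knockout from 2, of which 233 bp were shared, in a body of 4694 bp. Rab3d (chr9:21907491-21918199), a secretory granule member, had 2 wild-type regions of 1199 and 674 bp, or 17.5% of the body, with 51 tags (exact 95% interval 38.0 to 67.1), and no knockout region. Rab44, a large member with calcium-binding EF hands, had 12.6% and 5.57%, from 6 and 3 regions, and all 3 knockout regions overlapped wild-type ones. These 3 genes, and Rab5c, had the lower share in the knockout under each alternative run on them, as Rab35, Rab20, Rab10 and Rab3c had the higher.

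Rab37 (chr11:115091331-115162773), a member on secretory vesicles, had 13 wild-type regions and 7 knockout regions over nearly the same length, 7876 and 8037 bp, or 11.02% and 11.2%. The knockout total came largely from regions of 2402 and 2522 bp. Rab37 shares 19159 bp with the coding gene Cd300lf, so regions there belong to both annotations. Rab27a (chr9:73044810-73097623), which docks secretory granules at the plasma membrane, had 4 and 6 regions over 5.43% and 6.56%, and its flanks were thinly covered, at 1% and 0.83% over 50 kb on either side. Rab3b, Rab3c and Rab27b stayed at 1.03% or less, and Rab3a, the synaptic vesicle member, had no region.

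Among the 4 members linked to the cilium or to ubiquitin ligases, pooled cover was 1.55% and 0.64%. Rab23, a negative regulator of Hedgehog signalling, had 3 wild-type regions over 9.22% and 1 knockout region over 2.78%, with no region in the 50 kb on either side in either library. Rab40c had 1.33% in the knockout alone although its flanks were the most covered of the family, at 20.1% and 13.3%, Rab28 had 0.76% in the wild type alone and Rab40b had none. Rab42, placed in no group, had 1 knockout region of 500 bp, or 17.0% of a body of 2945 bp. Like Rab24 and Rab34, it shows how a single short region sets the share of a short gene.

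The 50 kb on either side of the Rab genes had 3.06% cover in the wild type and 2.65% in the knockout, close to the 3.48% and 3.25% inside the bodies. In 21 of the 46 members with a region, the body was more covered than the flanks in both libraries. No flank values over all coding genes are given beside these, so they show no trait particular to Rab genes. The 13 members with no region had 0.99% and 0.93% of their summed flanks covered, although Rab19 had 5.51% and 2.63% and Rab13 3.08% and 4.22%, and their bodies were 3906 to 61300 bp long.

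Shared positions were a minority of the cover. In the wild type 44 of 112 Rab regions (39.3%, exact 95% interval 30.2 to 49.0) overlapped a knockout region by at least 1 bp, against 30.6% over all coding genes. In the knockout 44 of 90 (48.9%, interval 38.2 to 59.7) overlapped a wild-type region, against 41.4%. Both intervals include the value of all genes. Of the 29 members with regions in both libraries, 8 had no base in common, namely Rab2a, Rab4b, Rab7, Rab11b, Rab12, Rab15, Rab21 and Rab27b. Except for Rab7, with 4 in each library, these genes had only 1 or 2 regions per library. The base pairs in common were 34.2% of the wild-type and 36.6% of the knockout Rab cover. For this share and the count of genes without a common base, no values over all coding genes are given.

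Many regions over Rab genes were of the smallest size the caller gives. Exactly 500 bp long were 51 of 112 in the wild type (45.5%) and 42 of 90 in the knockout (46.7%), against 51.5% and 53.2% over all coding genes, and the overlap with the other library was 27.5% and 28.6% for these. Regions of 1000 bp or more numbered 15 in the wild type and 16 in the knockout, a ratio of 107% with an interval of 49.4 to 232, against 74.9% over all coding genes. Regions of 2000 bp or more numbered 1, over Rab8a, in the wild type and 4 in the knockout, of which Rab6b and Rab8b held 1 each and Rab37 the other pair.

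The genes that regulate and read out Rab proteins had lower pooled cover in the knockout in each list, as coding genes did in general. The knockout held 74.8% of the wild-type covered length over all coding genes. For exchange factors it held 65.4%, for GTPase-activating proteins 80.2% and for effectors 77.7%. For the prenylation list it held 36.7% and for Rab-like genes 60.1%. Of all coding genes with a region, 59.7% were smaller in the knockout and 36.7% larger. For 38 exchange factors pooled cover was 4.18% and 2.73%, with 22 smaller and 10 larger of 33 with a region and a median difference of −0.99 points. Vps9d1 went from 4.21% to 19.4%, Dennd6b from 4.18% to 19.1% and Dennd2d from 20.1% to 10.7%. For 40 GTPase-activating proteins it was 3.74% and 3.002%, with 19 smaller and 15 larger of 35 and a median difference of −0.51. Tbc1d17 went from 0 to 33.2%, the 1 member of these lists higher by 20 points, Tbc1d10a from 30.2% to 12.2% and Tbc1d22a from 13.2% to 6.94%.

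For 9 genes of Rab prenylation, escort and extraction from membranes cover was 1.86% and 0.68%, and 3 of them had a region. Rabggta, a subunit of the enzyme that attaches the prenyl group, went from 42.8% to 8.27%, Yif1a from 19.7% to 22.5% and Chm, a Rab escort protein, from 0.34% to 0. For 44 effectors and partners cover was 3.23% and 2.51%, with 21 smaller and 12 larger of 34 and a median difference of −0.74, where Bicd2, a dynein adaptor of Rab6, went from 20.05% to 6.34%, Sytl1 from 25.2% to 16.8% and Rabl6 from 3.32% to 11.3%. In 7 Rab-like genes, a list that also holds Rabl6, cover was 3.86% and 2.32%, and Rabl2 went from 5.30% to 0 and Cracr2a, a calcium-binding Rab-like protein of T cells, from 6.38% to 1.498%. The medians of the exchange factors, effectors and Rab-like genes (−1.49) lay below the −0.69 of all genes. Those of the GTPase-activating proteins (−0.51) and the prenylation list (−0.34) lay above it. The median of the Rab genes themselves was 0.

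**Figure D5:**
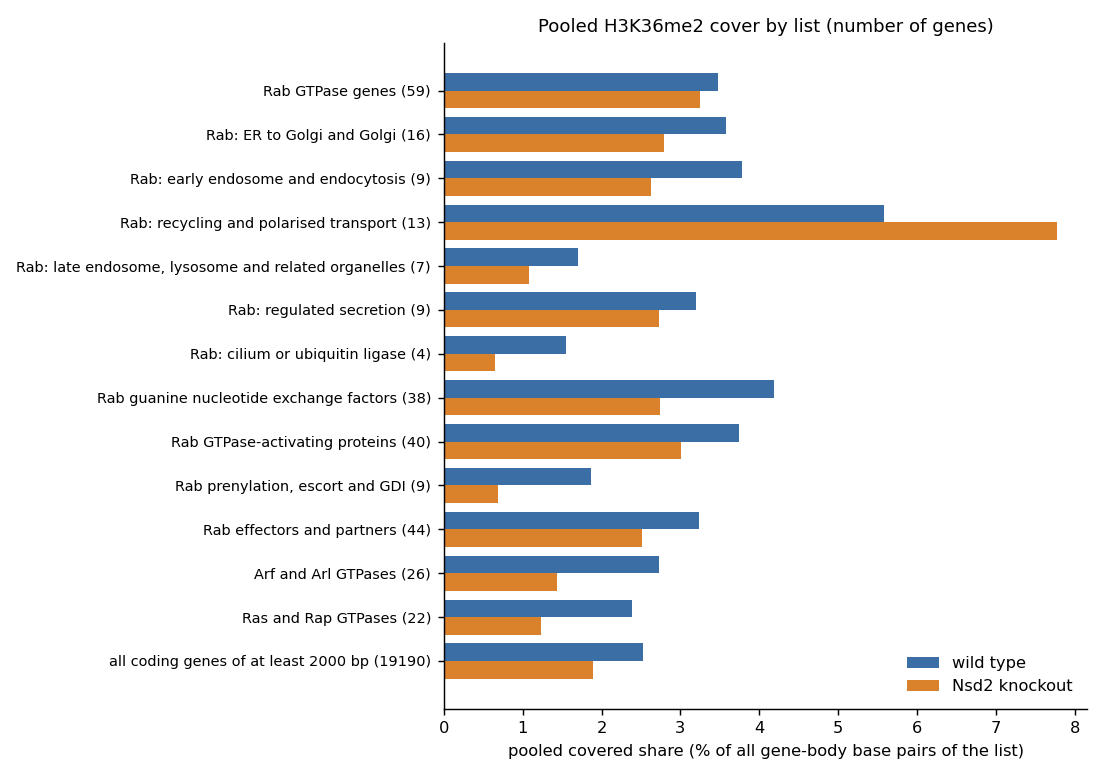
Pooled covered share (x axis, % of all gene-body base pairs of a list inside H3K36me2 regions) for the Rab genes, their 6 role groups, 4 lists of Rab regulators and effectors, 2 other GTPase families and all coding genes of at least 2000 bp, with the number of genes in brackets, blue bars for the wild type and orange for the knockout. The recycling group is the only list with a longer orange bar, 7.77% against 5.58%.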

How the data were processed

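H3K36me2 was profiled with an in situ ChIP library kit in Treg cells of 1 wild-type and 1 Nsd2 conditional knockout library, grouped by the genotype labels. Per the submitters' processing notes, Trim Galore, Bowtie2, Picard, HOMER and deepTools were used, with no versions stated, on mm10. Per the file headers, HOMER called regions on each library alone, in histone style, by stitching 500 bp peaks; that command listed no control. Per the file headers, the signal of a region is its tag count, scaled by the authors to a library size of 10000000 tags. The score of a region, as deposited, appears from its values to count tags in a peak. The clonal fold change, a ratio as deposited by the authors, was not used. A change in the total amount of the mark could not be seen after this scaling.

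Gene bodies, starts and sequences came from RefSeq tables of GRCm38.p6, without exons, and overlapping genes share regions. Covered shares were computed with pandas 2.3.3, numpy 2.4.6 and scipy 1.17.1 under Python 3.11.15 for coding genes of at least 2000 bp, with a difference of 20 points as a rule of size. The code was tested on simulated data. Intervals are exact, at 95%, and cover counting error only, since tags are PCR reads without molecular identifiers. The tags of a gene are those inside regions called in the same library. Tags at the same place in the other library are left out where no region was called. Members, role groups and lists were chosen with earlier results of these data known. By rule, values are given for members covered over at least 20%, for the 8 largest differences in each direction, for members with at least 5% in 1 library alone and for the 3 largest differences of each pathway list. Other members were named after their values were seen. Alternatives for region size, score, tags, threshold, stitching, gene window and length were run. Some items measured are not reported here individually.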

Additional observations from a re-analysis of the deposited data

How the results depend on the processing

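Of 83 alternative values for the counts of Rab genes and regions, 65 stayed within 1.5 times the value reported or within its counting interval, and 18 moved. With only regions of at least 1000 bp, 9 Rab genes had a wild-type region and 10 a knockout region, 6 were smaller and 8 larger in the knockout, and 1 was higher by 20 points. With only regions of at least 15 normalised tags these counts were 11, 16, 7, 12 and 1, and the knockout held 25 regions against 18, or 139% of the wild type. In both, larger shares and knockout regions outnumbered smaller shares and wild-type regions, the opposite of the order reported, and fewer regions entered. The number higher by 20 points was 4 at a limit of 10 points, 2 after scaling for covered length, and 1 with regions up to 1000 bp apart joined. The number lower by 20 points was 3 at 10 points, 2 with regions joined, and 0 with 5 kb added on each side or with genes of at least 10000 bp only, which excludes Rab24. Of the 42 members that differed, 8 kept their direction in all settings run on them, 13 turned in at least 1 and 21 went to 0 in at least 1 without turning. The cause was not tested.

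Leaving out Rab8b, Rab6b or Rab37 was chosen after seeing the data and left each count within 1.5 times. No paired analysis was possible because each genotype had 1 library and no replicate number. The tag threshold limits depth: a 500 bp region near it rests on few tags, and its absence from the other library is no measure of loss.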

Other observations

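Some other families of small GTPases were measured in the same way. The 26 Arf and Arl genes, which recruit vesicle coats and tethers, had 2.72% and 1.43%, with 12 smaller and 4 larger of 18 and a median difference of −1.73 points, and Arl4d went from 28.2% to 0 and Arf5 from 21.9% to 0. The 22 Ras and Rap genes had 2.38% and 1.23%, with 14 smaller and 3 larger of 17 and a median difference of −2.05 points, and Hras went from 12.2% to 28.4%, Rap2b from 13.9% to 0 and Rras from 13.5% to 0. Differences between the families were not tested.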
